A study of Rattus norvegicus with 6 samples.

Results

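The miR-17-92 cluster is a set of 6 microRNA hairpins, those of miR-17, miR-18a, miR-19a, miR-20a, miR-19b-1 and miR-92a-1, that lie side by side on 1 chromosome and are cut from a single primary transcript. The 10 arms described here were taken by name from the 764 rat miRNA entries of the deposited table, and all 10 were above 0 in some library. They are 6 arms called guides below, because they held most of the reads of their hairpin (miR-17-5p, miR-18a-5p, miR-19a-3p, miR-20a-5p, miR-19b-3p and miR-92a-3p), and 4 arms from the opposite strand of a hairpin (miR-17-1-3p, miR-18a-3p, miR-20a-3p and miR-92a-1-5p).

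The libraries came from the testicle of male Sprague Dawley rats. The left testicle had been rotated by 720°, held for 2 h, released, and left in place for 3 days. The compared groups were 3 wild type libraries and 3 libraries from HO-1 knockout rats. Heme oxygenase 1 (HO-1) degrades heme and is induced by stress. All 6 libraries shared the injury, and uninjured or sham-operated tissue was not analysed here. The labels give neither the age of the rats nor how the knockout was made. Whether the libraries stand for different animals is not stated, and p-values therefore measure the spread between libraries, which may be technical.

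miRNAs are short RNAs that guide Argonaute proteins to messenger RNAs, mostly through the seed, the bases 2 to 8 counted from the 5′ end. A hairpin yields a duplex, of which usually 1 strand is kept and the other is degraded. The miR-17-92 transcript is known as a target of MYC and E2F factors, is high in dividing cells, and its products are known to repress inhibitors of the cell cycle and of survival signalling. Since the arms leave the nucleus as separate hairpins, their levels can differ after transcription.

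The sequences show why the cluster is read as 4 seed groups. They were taken from RefSeq (build GRCr8), which held all 10 members. Capitals mark the seed, and letters run 5′ to 3′.

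rno-miR-17-5p: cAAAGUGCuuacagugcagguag

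rno-miR-20a-5p: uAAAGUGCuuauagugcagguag

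rno-miR-18a-5p: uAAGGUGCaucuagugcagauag

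rno-miR-19a-3p: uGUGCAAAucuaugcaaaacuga

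rno-miR-19b-3p: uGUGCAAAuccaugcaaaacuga

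rno-miR-92a-3p: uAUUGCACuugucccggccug

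The arms miR-17-5p and miR-20a-5p had the same seed and differed at 2 of 23 bases, C1U and C12U, counted from the 5′ end with the base of miR-17-5p first. The pair of miR-19 arms differed at 1 base, U11C, outside the seed. The seed of miR-18a-5p differed from that of miR-17-5p by A4G. The arms of the opposite strands have seeds of their own, with capitals again for the seed.

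rno-miR-17-1-3p: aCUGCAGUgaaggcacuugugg

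rno-miR-18a-3p: aCUGCCCUaagugcuccuucu

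rno-miR-20a-3p: aCUGCAUUacgagcacuuaca

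rno-miR-92a-1-5p: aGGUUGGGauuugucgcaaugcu

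In RefSeq the 6 hairpins span chr15:98587848-98588632 on the plus strand of GRCr8, a stretch of 785 bases in which the gene table lists 6 miRNA genes and 0 other genes. The deposited table holds no coordinates, and rn6, which the submitters' processing notes name, was not used here. The hairpin of miR-20a is shown because it gave the most abundant of the guides that have a single locus. Here capitals mark the mature arms, miR-20a-5p first and miR-20a-3p second.

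Mir20a: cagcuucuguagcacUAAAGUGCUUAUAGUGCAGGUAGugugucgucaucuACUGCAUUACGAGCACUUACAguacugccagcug

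A paralogous cluster of 5 hairpins lies on the X chromosome and gives the same mature miR-17-5p, miR-19b-3p and miR-92a-3p, so these 3 members had 2 source loci each and their reads cannot be assigned to 1 of them. The other 7 members had 1 locus each, on chromosome 15.

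Recovered read totals were 8300536 to 10042673 per library and did not separate the genotypes (exact two-sided permutation p = 0.4). Values are reads per 1000000 assigned reads (RPM). A count of 0 allows up to 3 reads, or 0.299 to 0.361 RPM depending on the library, for counting error only. The libraries did not look like testis in their main miRNA: the hepatocyte miR-122-5p held 32.7% to 36.6% of the reads in wild type and 40.2% to 46.4% in knockout libraries. The 3 germ cell markers (miR-34b-5p, miR-34c-5p and miR-449a-5p) summed to 31.9 to 49.0 RPM and 24.0 to 28.9 RPM, and of the 2 gonadal somatic markers (miR-202 arms) 1 was at 0 in every library. A small RNA library does not measure the HO-1 transcript, which left the genotype labels without a check.

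The 10 arms of the cluster differed widely in level. miR-92a-3p, the last arm of the transcript, was the most abundant, at 3056, 3078 and 2682 RPM in the wild type libraries, in the order of their numbers, and at 1583, 2128 and 1903 RPM in those of the knockout. It held 65.3% ± 2.5 of the reads of the 10 arms in wild type and 65.2% ± 3.1 in knockout libraries (SD, n = 3). Its mean level was 4.94 times that of the next arm, and it ranked 32 among the 764 entries.

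The next places were held by miR-20a-5p and miR-17-5p, at ranks 63 and 68. miR-20a-5p was above miR-17-5p in 3 of 3 wild type libraries but in 1 of 3 knockout libraries, so their order was not the same throughout. miR-19b-3p followed at rank 81, below miR-17-5p in all 6 libraries, and miR-19a-3p at rank 128, below miR-19b-3p in all 6. miR-18a-5p stood at rank 246, with 9.6 to 25.6 times fewer reads than miR-19a-3p in each library, although their hairpins are neighbours in the transcript.

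The opposite strands were rare. miR-17-1-3p, miR-92a-1-5p and miR-18a-3p had ranks 284, 289 and 292, and their neighbours in that order changed places between libraries, so they did not differ beyond their spread. miR-20a-3p stood last, with 4, 5 and 0 reads in wild type libraries 1 to 3 and 5, 3 and 1 in knockout libraries 1 to 3. The 6 guides together held 99.8% ± 0.04 of the reads of the 10 arms in wild type and 99.8% ± 0.06 in knockout libraries (SD, n = 3). These are levels in reads of whole mature arms, with no scaling for length, and a read of 1 sequence need not stand for as many molecules as a read of another.

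**Figure D1:**
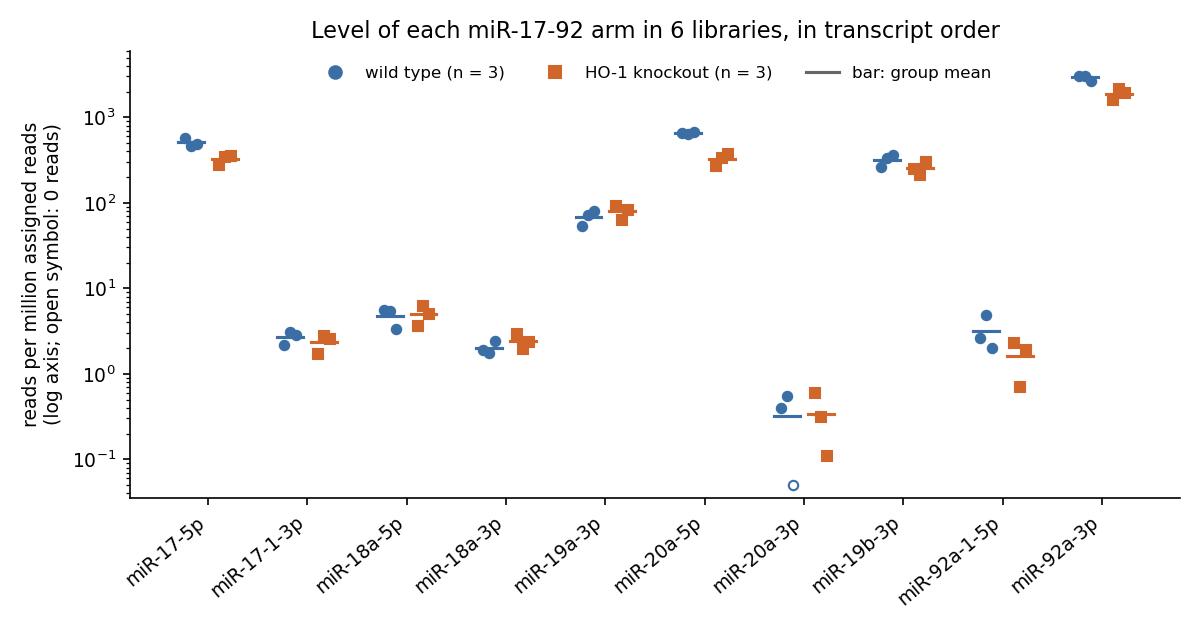
Level of each arm in RPM (log axis) in the 3 wild type (circles) and 3 HO-1 knockout libraries (squares), in transcript order, with bars for group means and an open symbol for 0 reads. The arms run from under 1 RPM for miR-20a-3p to 3078 RPM for miR-92a-3p, and the genotypes do not overlap for miR-17-5p, miR-20a-5p and miR-92a-3p.

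Between genotypes, 3 of the 10 arms were lower in the knockout and 0 were higher (limma on log2(RPM + 1), Benjamini-Hochberg adjusted p below 0.05 over all 570 tested miRNAs). They were miR-20a-5p, miR-17-5p and miR-92a-3p, which is both arms with the miR-17 seed and the arm with the miR-92 seed, and neither the miR-18a arms nor the miR-19 arms. In the same fit 5.61% of all tested miRNAs were called lower and 0.702% higher, 6.32% in all. Among the arms with a mean of at least 10 RPM the count was 3 of 5, beside 11.9% of the 218 miRNAs at that level. The same 3 arms were those whose genotypes did not overlap, all lower in the knockout, beside 21.6% of all tested miRNAs and 41.7% of those of at least 10 RPM.

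miR-20a-5p, a miRNA of the miR-17 seed whose only annotated locus is on chromosome 15, was at 647, 630.3 and 665 RPM across wild type libraries 1 to 3. Knockout libraries 1 to 3 gave 267, 338 and 377 RPM. Every knockout library was below every wild type library. Its level fell by 0.997 on the log2 scale (SE 0.14, limma adjusted p = 0.015), from 647 ± 17 to 327 ± 56 RPM (SD, n = 3), or 1.98-fold. This call remained under every one of the 16 alternatives, with a log2 change between -1.11 and -0.74.

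miR-17-5p, the arm after which the seed group is named, was at 574, 464 and 493 RPM across wild type libraries 1 to 3. Knockout libraries 1 to 3 gave 273, 343 and 348 RPM. The groups did not overlap. It fell by 0.67 on the log2 scale (SE 0.14, limma adjusted p = 0.031), or 1.59-fold, but without any single library the call was lost (limma adjusted p between 0.062 and 0.097), and with upper-quartile scaling it was lost too (limma adjusted p = 0.070).

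miR-92a-3p, whose values stand above, fell by 0.66 on the log2 scale (SE 0.13, limma adjusted p = 0.025), from 2939 ± 223 to 1871 ± 274 RPM (SD, n = 3), or 1.57-fold. Its groups did not overlap. Leaving out 1 library ended the call in 4 cases, wild type libraries 1 and 2 and knockout libraries 1 and 3, where the limma adjusted p ranged from 0.066 to 0.097.

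The 2 miR-19 arms did not pass. miR-19b-3p was at 259, 336 and 365 RPM in the wild type libraries, in the order of their numbers, and at 246, 213 and 301 RPM in those of the knockout, a log2 change of -0.34 (95% interval -0.75 to 0.07; limma adjusted p = 0.34). miR-19a-3p was at 53.6, 71.4 and 79.3 RPM in the wild type libraries, in the order of their numbers, and at 92.4, 63.2 and 82.3 RPM in those of the knockout, a log2 change of 0.22 (95% interval -0.26 to 0.70; limma adjusted p = 0.57). For both arms the genotypes overlapped. Leaving out 1 library moved the change of miR-19a-3p to 0.057 (wild type 1), 0.10 (knockout 1), 0.34 (wild type 3) or 0.37 (knockout 2). miR-19a-3p was highest in knockout library 1, the library in which miR-20a-5p, miR-17-5p and miR-92a-3p were lowest.

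miR-18a-5p was at 5.58, 5.37 and 3.38 RPM in the wild type libraries, in the order of their numbers, and at 3.61, 6.22 and 5.0 RPM in those of the knockout. Its groups overlapped, with 137 reads in all wild type libraries and 136 in all knockout libraries. Its log2 change of 0.04 had a 95% interval of -0.63 to 0.71 (limma adjusted p = 0.94). The change of miR-20a-5p, -0.997, lay outside that interval.

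The 4 opposite strands did not pass either, with limma adjusted p from 0.35 for miR-92a-1-5p to 0.93 for miR-20a-3p. miR-92a-1-5p was at 2.59, 4.82 and 2.00 RPM in the wild type libraries, in the order of their numbers, and at 2.29, 0.71 and 1.89 RPM in those of the knockout. Its groups overlapped, and its log2 change of -0.65 had a 95% interval of -1.47 to 0.17. At 7 to 44 reads per library, a change of the size seen in miR-92a-3p was not detectable in this arm.

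These changes are relative to the total of each library. The 218 miRNAs with a mean of at least 10 RPM showed a median log2 change of -0.29, moved by 0.21 to -0.08 when TMM scaling was used. The 5 arms at that level had a median of -0.66, and -0.44 with TMM scaling, and the 10 arms a median of -0.25 beside -0.12 for all 570 tested miRNAs. With TMM scaling miR-20a-5p, miR-17-5p and miR-92a-3p had log2 changes of -0.78, -0.45 and -0.44 and stayed called (limma adjusted p = 0.015, 0.026 and 0.028), beside 5.09% of all tested miRNAs called lower. miR-19b-3p had -0.12 and miR-19a-3p 0.43, and neither passed. In the authors' deposited table, the log2 fold changes of miR-20a-5p, miR-92a-3p and miR-17-5p are -0.98, -0.65 and -0.67, with p-values of 3.44e-06, 0.0036 and 0.0066 from a test that is not named there.

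**Figure D2:**
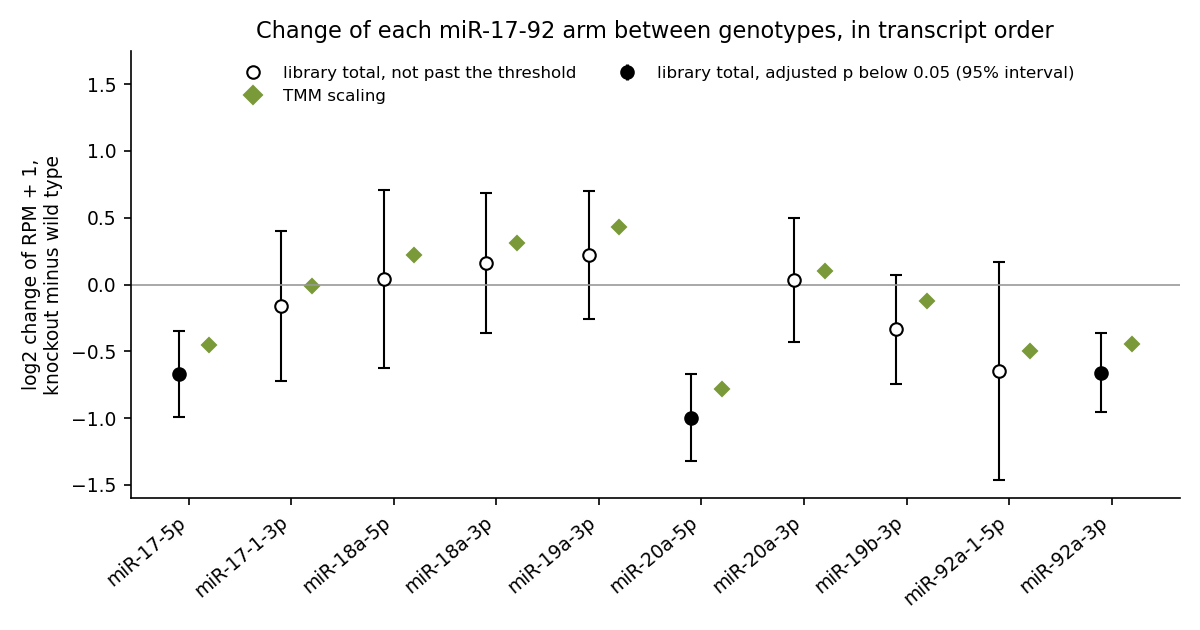
Log2 change of RPM + 1, knockout minus wild type, for each arm in transcript order, with circles and 95% intervals for scaling to the library total (filled where the adjusted p was below 0.05) and diamonds for TMM scaling. The filled circles are miR-17-5p at -0.67, miR-20a-5p at -0.997 and miR-92a-3p at -0.66, and TMM scaling places every arm higher.

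The ratio of 2 arms within a library does not depend on how that library is scaled. Printed ratios are of RPM as deposited. Log2 differences, their tests and the counts of pairs without overlap used RPM + 1, which for rare arms does depend on scaling. Pairs with miR-17-5p, miR-19b-3p or miR-92a-3p may hold reads of both clusters, so they need not compare products of 1 transcript. All 15 pairs of guides and the 4 pairs of an opposite strand with its guide were compared. With 3 against 3 libraries the exact two-sided permutation test cannot go below p = 0.1, so no ratio could pass, and over the 19 ratios the smallest Benjamini-Hochberg adjusted p was 0.158. Of the 10 pairs among the 5 guides of at least 10 RPM, 7 did not overlap between genotypes, beside 46.5% of all 23653 pairs of miRNAs at that level. Pairs that share an arm are not independent. Each of the 7 held miR-20a-5p or miR-19a-3p, and every pair without these arms overlapped.

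Within the miR-17 seed, the ratio of miR-17-5p to miR-20a-5p was 0.888, 0.736 and 0.742 in wild type libraries 1 to 3. In knockout libraries 1 to 3 it was 1.02, 1.02 and 0.923. Each knockout ratio was above each wild type ratio, a log2 difference of 0.33 (exact two-sided permutation p = 0.1).

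Within the miR-19 seed, the ratio of miR-19a-3p to miR-19b-3p was 0.206, 0.213 and 0.217 in wild type libraries 1 to 3. In knockout libraries 1 to 3 it was 0.376, 0.296 and 0.274. The wild type libraries were close to each other and all below the knockout libraries, a log2 difference of 0.55 (exact two-sided permutation p = 0.1). These are the 2 arms that differ by U11C, and neither passed the test on its own level.

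Across seeds, and among all pairs of guides, the ratio of miR-17-5p to miR-92a-3p differed least between genotypes. It was 0.188, 0.151 and 0.184 across wild type libraries 1 to 3 and 0.173, 0.161 and 0.183 across those of the knockout, with a log2 difference of -0.01 (exact two-sided permutation p = 0.9). The largest shift among guides was between miR-19a-3p and miR-20a-5p, whose ratio was 0.105 ± 0.02 in wild type and 0.251 ± 0.084 in knockout libraries (SD, n = 3). That log2 difference of 1.21, without overlap, came from hairpins that are neighbours in the transcript and have a single locus each.

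Against each of the other 5 guides, miR-20a-5p had a lower ratio in the 3 knockout libraries, with no overlap. miR-19a-3p had a higher ratio, with no overlap, against 4 of 5 guides, all but miR-18a-5p. The ratios of 1 arm all carry its own change and are not independent. The share of 46.5% given above does not cover pairs with miR-18a-5p, which is under 10 RPM. Among the opposite strands, miR-17-1-3p stood at 5.40 ± 1.44 reads per 1000 reads of miR-17-5p in wild type and 7.18 ± 0.92 in knockout libraries (SD, n = 3), and miR-18a-3p at 461 ± 223 and 527 ± 250 per 1000 reads of miR-18a-5p. For miR-17-1-3p and miR-20a-3p the genotypes did not overlap on the log2(RPM + 1) scale, and they overlapped with a pseudocount of 0.1 RPM.

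**Figure D3:**
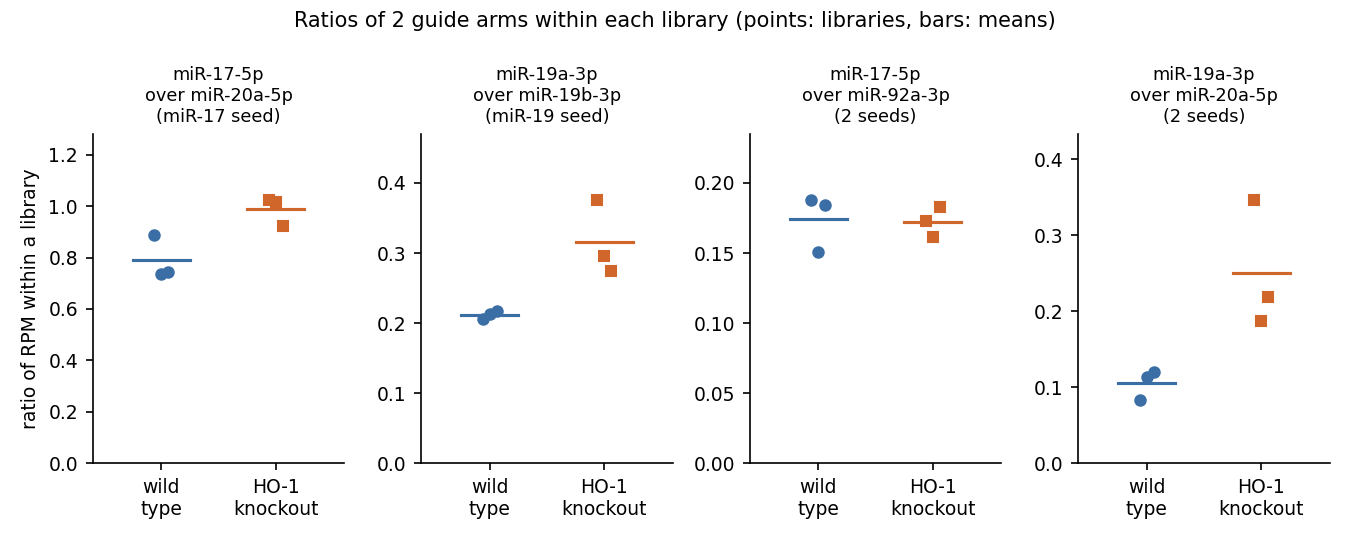
Ratio of the RPM of 2 guide arms within each library (points) with group means (bars), for a pair with the miR-17 seed, a pair with the miR-19 seed and 2 pairs across seeds, each axis starting at 0. The genotypes are apart for all pairs shown but miR-17-5p over miR-92a-3p, where the means are 0.174 and 0.172.

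The 10 arms summed to 4603, 4596 and 4295 RPM across wild type libraries 1 to 3 and 2472, 3098 and 3023 RPM across those of the knockout. The groups did not overlap, and the means were 1.57-fold apart (exact two-sided permutation p = 0.1, Benjamini-Hochberg adjusted p = 0.16 over 8 sums). On average miR-92a-3p, itself 1.57-fold lower, made up 65.3% of the wild type sum and 65.2% of the knockout sum. Its reads, and those of miR-17-5p and miR-19b-3p, may include reads of the X chromosome cluster. By seed, the miR-17 arms summed to 1158 ± 64 RPM in wild type and 649 ± 97 RPM in knockout libraries, without overlap, and the miR-19 arms to 388 ± 68 and 333 ± 53 RPM, with overlap (SD, n = 3). As a share of the reads other than miR-122-5p, the 10 arms held 0.694% ± 0.024 in wild type and 0.505% ± 0.039 in knockout libraries, again without overlap.

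Markers of other cell types were compared in the same libraries. The endothelial markers (miR-126a arms) summed to 25222 to 26982 RPM in wild type and 19147 to 21287 RPM in knockout libraries. Of these arms of the same miRNA, 2 of 2 were called lower, beside 5.61% of all tested miRNAs and 11.9% of those of at least 10 RPM. The 3 red blood cell markers (miR-451-5p, miR-144-3p and miR-486) summed to 437 to 541 RPM and 353 to 436 RPM, with none called. The 5 leukocyte markers (miR-142 arms, miR-223-3p, miR-150-5p and miR-342-3p) summed to 787 to 896 RPM and 836 to 946 RPM, with overlap and none called. Their part in the result was not tested. In tissue libraries such as these, fewer cells of a type and less RNA per cell cannot be told apart.

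The X chromosome cluster could add reads to miR-17-5p, miR-19b-3p and miR-92a-3p. Its own arm miR-17-2-3p, shown here with the seed in capitals beside miR-17-1-3p of chromosome 15, tells those loci apart on the opposite strand.

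rno-miR-17-2-3p: aCUGCACUgcaagcacuucuuac

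rno-miR-17-1-3p: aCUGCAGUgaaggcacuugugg

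miR-17-2-3p was at 3.84 ± 1.15 RPM in wild type and 2.37 ± 1.30 RPM in knockout libraries, beside 2.70 ± 0.46 and 2.33 ± 0.57 RPM for miR-17-1-3p (SD, n = 3). Its ratio to miR-17-1-3p ranged from 0.609 to 1.95 over the 6 libraries, so opposite-strand reads of both loci were present. The counterpart of miR-20a-5p on the X chromosome, miR-20b-5p, was far rarer, at 7.22 ± 1.15 and 5.95 ± 0.98 RPM. The opposite strands of its miR-92a-2 and miR-19b-2 hairpins were at 0 in every library.

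The list of related miRNAs, the arms of the paralogous clusters and other miRNAs with 1 of the 4 seeds, named 26 arms, of which 19 were in the table and 17 were tested. In limma's test 0 were called in either direction (1 had an unadjusted p below 0.05), while edgeR's quasi-likelihood test and DESeq2 on recovered reads each called 2 higher, miR-32-5p and miR-363-3p. The same 2 were higher with totals that leave out the 10 most abundant miRNAs, and miR-32-5p alone with upper-quartile scaling. Those settings called 25 and 19 of all 570 tested miRNAs higher, against 4 with library totals. edgeR called 4.56% of 570 miRNAs higher and DESeq2 10% of the 349 it adjusted. The 17 had a median log2 change of -0.05.

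The seed of miR-17-5p was carried by 5 of the 693 mature rat miRNA names in RefSeq, 0.722%, and so was that of miR-92a-3p. The seed of the miR-19 arms had no other carrier, nor had that of miR-18a-5p. The sequences of the most abundant relatives, with seeds in capitals, show that miR-93-5p and miR-106b-5p share the seed of miR-20a-5p, and the other 3 that of miR-92a-3p.

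rno-miR-93-5p: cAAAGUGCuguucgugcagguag

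rno-miR-106b-5p: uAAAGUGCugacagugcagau

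rno-miR-25-3p: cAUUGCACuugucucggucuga

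rno-miR-32-5p: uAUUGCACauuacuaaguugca

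rno-miR-363-3p: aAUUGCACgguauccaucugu

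In the miR-17 seed group, miR-93-5p was at 339, 298 and 318 RPM in the wild type libraries, in the order of their numbers, and at 188, 263 and 289 RPM in those of the knockout. All knockout values were below the wild type values, with a log2 change of -0.39 that missed the threshold (limma adjusted p = 0.26). It was -0.17 with TMM scaling and -0.21 without knockout library 1. For miR-106b-5p the log2 change was -0.35 (limma adjusted p = 0.30), which TMM scaling moved to -0.14. Its other strand, miR-106b-3p, had one of -0.08 (limma adjusted p = 0.78) that became 0.13 with TMM scaling. Summed over its 5 rows, the seed held 1549 ± 87 RPM in wild type and 953 ± 153 RPM in knockout libraries (SD, n = 3), without overlap. The exact two-sided permutation p was 0.1 (Benjamini-Hochberg adjusted p = 0.16). Most of that sum was miR-17-5p and miR-20a-5p, together 1158 ± 64 RPM in wild type and 649 ± 97 RPM in knockout libraries.

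The miR-92 seed group was mixed. miR-363-3p, the last arm of the X chromosome cluster, was at 34.1, 34.8 and 36.5 RPM in the wild type libraries, in the order of their numbers, and at 45.1, 44.1 and 43.8 RPM in those of the knockout. Each knockout value was above each wild type value, with a log2 change of 0.33 (limma adjusted p = 0.26). miR-32-5p had a log2 change of 0.30 (limma adjusted p = 0.34), which was 0.18 without wild type library 3. With TMM scaling the changes of miR-363-3p and miR-32-5p were 0.54 and 0.51 and did not pass (limma adjusted p = 0.072 and 0.077). miR-25-3p, of the miR-106b cluster, was at 934 ± 102 and 863 ± 65 RPM (SD, n = 3). Its log2 change of -0.11 became 0.10 with TMM scaling, where it did not pass either. Summed over its 5 rows, this seed held 3977 ± 256 RPM in wild type and 2862 ± 338 RPM in knockout libraries (SD, n = 3), without overlap, and most of that sum was miR-92a-3p itself.

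**Figure D4:**
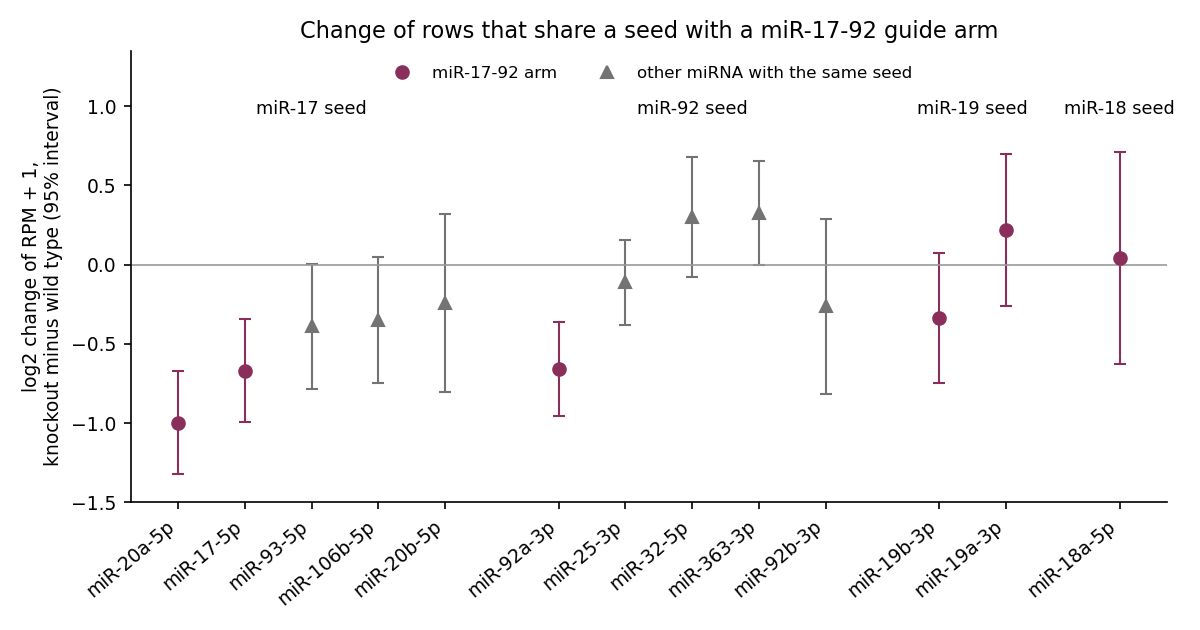
Log2 change of RPM + 1, knockout minus wild type, with 95% intervals, for every row that carries a seed of the 6 guides; circles are arms of the miR-17-92 cluster and triangles other miRNAs with the same seed. All 5 rows with the miR-17 seed lie below 0, from -0.997 to -0.24, as do 396 of all 570 tested miRNAs. Rows with the miR-92 seed run from -0.66 for miR-92a-3p to 0.33 for miR-363-3p. TMM scaling places miR-93-5p at -0.17, miR-106b-5p at -0.14 and miR-25-3p above 0.

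The mean centred profile of miR-17-5p, miR-20a-5p and miR-92a-3p over the 6 libraries was compared with 213 other miRNAs of at least 10 RPM. The most alike, by root mean square difference of log2 values, were miR-16-5p at 0.051, miR-30a-5p at 0.088, miR-100-5p at 0.094, miR-351-5p at 0.116 and miR-203a-3p at 0.127. miR-16-5p was at 906 ± 29 RPM in wild type and 538 ± 81 RPM in knockout libraries (SD, n = 3).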

How the data were processed

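Per the labels' protocols, a small RNA kit was used on 1 μg of total RNA and reads were single ends of 50 bp. The authors deposited RPM (reads per 1000000 assigned reads) for each of the 6 libraries. The same deposited table holds a mean RPM for each genotype, a log2 fold change and a p-value. The submitters' processing notes name FastQC, BWA, edgeR and rn6 without saying what each was used for. No mismatch rule, and no rule for reads that fit more than 1 entry, is given in the sources used here, which bears on arms that differ by 1 or 2 bases.

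The main test was limma (3.58.1) with an intensity trend on log2(RPM + 1), fitted to the 570 entries not at 0 throughout. Genotype was its single term, and p-values were adjusted over all 570 (Benjamini-Hochberg, threshold 0.05). The fit was tested on simulated data. At a mean of at least 10 RPM it called 87.5% of 16 miRNAs simulated at 0.5-fold and 0.719% of 139 unchanged ones. Changes smaller than 2-fold, such as those of the 3 called arms, were not simulated. As many miRNAs were simulated lower as higher, while 88.9% of the calls in these data were lower. The simulation therefore does not cover such an uneven shift. The log2 changes from limma are on the log2(RPM + 1) scale and understate those of rare miRNAs. Values given as folds, and the log2 ratios of sums, are ratios of group mean RPM with nothing added. Ratios and sums were compared by exact permutation tests. Whole reads were recovered from the RPM steps: 97.8% to 98.9% of values above 0 lay within 0.0051 RPM of a whole read, against 8.23% to 10.5% of values over 5 RPM at other totals. For wild type library 1 this rests on higher values, since its step lies close to 0.1 RPM. edgeR (4.0.16) and DESeq2 (1.42.0) on these reads were alternatives, beside other scalings, pseudocounts of 0.1 and 5 RPM, a minimum mean of 10 RPM, a replicate block and leaving out each library.

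Named miRNAs were all 10 members, up to 6 of the most abundant related arms, and the 5 miRNAs most alike in profile. miR-20b-5p, miR-17-2-3p and the opposite strands of the X chromosome cluster were named after their values were seen, for their locus. The members and lists were chosen with earlier results of these data known.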

Additional observations from a re-analysis of the deposited data

How the results depend on the processing

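Of the 3 arms called lower, 1 to 2 remained when any single library was left out: 2 when it was wild type library 3 or knockout library 2, and 1, miR-20a-5p, when it was another. Upper-quartile scaling kept 2. Deviations of same-numbered libraries had correlations of 0.033, 0.18 and 0.20, beside -0.29 to 0.060 for libraries with unequal numbers. With 3 libraries per genotype these cannot decide whether equal numbers mark pairs. The replicate block also kept 2 calls, with miR-17-5p at a limma adjusted p of 0.087. Over all miRNAs, the number of calls was 36, 22 in the replicate block, 61 in edgeR, 72 in DESeq2 and 5 to 26 with 1 library left out. The share of calls that were lower was 88.9% with library totals and 59.2% with TMM scaling.

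Of the related arms, 0 were called, against 1 with upper-quartile scaling and 2 each with totals without the 10 most abundant miRNAs, in edgeR and in DESeq2. The log2 ratio of the summed levels of the 10 arms stayed between -0.71 and -0.40.

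The sign changes were among values that did not pass, and for ratios and sums the exact permutation test could not pass. Log2 changes of miR-17-1-3p became 0.00091 with RLE scaling, 0.018 with totals without the 10 most abundant miRNAs and 0.0028 in DESeq2. Those of miR-25-3p became 0.10 with TMM and upper-quartile scaling and in edgeR, 0.13 with RLE, 0.14 with the reduced totals and 0.12 in DESeq2. Those of miR-106b-3p became 0.13 with TMM and upper-quartile scaling and in edgeR, 0.15 with RLE and in DESeq2 and 0.17 with the reduced totals. The log2 ratio difference of miR-92a-1-5p to miR-92a-3p became -0.29 with a pseudocount of 0.1, and the summed miR-19 arms 0.026 with the reduced totals. With 1 library left out, ranges were -0.15 to 0.21 for miR-18a-5p, -0.15 to 0.16 for miR-20a-3p, -0.18 to 0.062 for miR-106b-3p and -0.15 to 0.23 for the summed miR-18 seed. For ratios they were -0.11 to 0.048 for miR-17-5p to miR-92a-3p, -0.48 to 0.11 for miR-18a-5p to miR-19a-3p, -0.15 to 0.40 for miR-18a-3p to miR-18a-5p and -0.29 to 0.39 for miR-92a-1-5p to miR-92a-3p. The cause was not tested. The members under 10 RPM had 0 to 61 reads per library, which limits what could be detected in them.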
